A study of Homo sapiens with 6 samples.

Results

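The 32 genes described here encode enzymes and regulators of sterol and fatty acid synthesis that are linked to the sterol regulatory element-binding proteins (SREBPs). They were chosen by name, not by a measured value, from the 58735 genes of the deposited expression table, with earlier results of these data known. Of these genes, 7 act in the mevalonate steps, 11 between squalene and cholesterol, and 5 in regulation and sterol transport. A further 5 supply precursors and build the fatty acid chain, and 4 desaturate or elongate it. RNA was sequenced from lines of HEK293, cells derived from human embryonic kidney, each carrying a stable transgene for a mutant of tensin 2 (TNS2). In one mutant a tyrosine was exchanged for glutamate (Y483E), and in the other the same tyrosine was exchanged for phenylalanine (Y483F). Tensin 2 is an adaptor protein of focal adhesions; glutamate carries a charge and is used to imitate a phosphorylated tyrosine, and phenylalanine cannot be phosphorylated. Each of the 2 lines gave 3 libraries. Their titles call them biological replicates 1, 2 and 3, and their descriptions number them 1, 4 and 5. The meaning of the numbers is not stated, nor is it stated whether the libraries came from separate cultures or how many clones each line holds. The p-values therefore measure only the spread between these samples, which may be partly technical. A difference between the lines as such cannot be told apart from one between the substitutions. No cells without a transgene and none with unmutated tensin 2 were analysed here, so each comparison of lines sets one mutant against the other.

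SREBPs are made as membrane proteins of the endoplasmic reticulum and are encoded by SREBF1 and SREBF2. When sterols are scarce, SCAP escorts them to the Golgi, where they are cut, and the freed fragment enters the nucleus and switches on genes of cholesterol and fatty acid synthesis. When sterols are plentiful, INSIG1 holds SCAP and its cargo back. SREBF1, SREBF2 and INSIG1 are themselves among the targets, and many target promoters pair a sterol regulatory element with a box for the factor NF-Y.

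Parts of the promoters of HMGCS1, INSIG1 and SREBF2, members that differed between the lines in the libraries numbered 4 and 5, are shown to let these elements be seen. Each stretch ends at the base before the gene's first annotated exon and is written 5′ to 3′ on the gene's own strand, from RefSeq on GRCh38.p14. Capitals mark the NF-Y box, which reads ATTGG where CCAAT lies on the other strand, and the sterol regulatory element TCACNCCAC. The stretches lie at chr5:43313513-43313662 on the minus strand for HMGCS1, at chr7:155297628-155297775 on the plus strand for INSIG1, and at chr22:41832855-41833078 on the plus strand for SREBF2.
HMGCS1: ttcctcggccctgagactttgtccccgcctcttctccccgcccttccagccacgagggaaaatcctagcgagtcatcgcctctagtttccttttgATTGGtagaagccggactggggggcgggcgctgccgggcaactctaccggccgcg
INSIG1: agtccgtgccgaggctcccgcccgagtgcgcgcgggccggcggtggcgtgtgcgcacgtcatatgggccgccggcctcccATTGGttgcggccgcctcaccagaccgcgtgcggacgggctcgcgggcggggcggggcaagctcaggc
SREBF2: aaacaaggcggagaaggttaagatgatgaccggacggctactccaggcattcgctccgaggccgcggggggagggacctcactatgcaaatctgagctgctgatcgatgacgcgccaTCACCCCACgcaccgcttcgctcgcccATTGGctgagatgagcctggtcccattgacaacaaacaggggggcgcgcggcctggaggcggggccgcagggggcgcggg
The SREBF2 stretch held both elements, and the HMGCS1 and INSIG1 stretches each held an NF-Y box in the letters searched. RefSeq windows of 300 bases, from 250 before to 50 after a start, matched 28 of the 32 members with 38 windows, since some genes have several starts. The HMGCS1 window also held an NF-Y box 100 to 96 bases before its start, past the end of the stretch shown. FDFT1, FASN, SQLE and ACAT2 had no entry. FADS2, which also differed between the lines in libraries 4 and 5, is not shown because its window lies inside the annotated gene. That window held CCAAT after the start and no TCACNCCAC. On either strand CCAAT lay in 25 of the 38 windows (65.8%), against 34.6% of all 35116 windows and 34.9% of the windows of the genes tested. TCACNCCAC lay in 1 of the 38 windows, that of SREBF2 (2.63%), against 1.13% of all windows. No other form of the sterol regulatory element was searched. A match of letters is a description of the window and not a bound site.

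Reads recovered from the deposited values numbered 17204498 to 23284592 per library. The first principal component, which held 40.9% of the variance, set Y483F libraries 4 and 5 at -17.0 and -12.9 and the other 4 between 4.94 and 13.4. The second, which held 21.6% of the variance, set the 2 libraries numbered 1 at 9.36 and 11.5 and the other 4 between -9.03 and -0.926. TNS2 lay between 0.753 and 1.16 FPKM (fragments per kilobase of gene length, scaled to a library total), a value that does not separate transgene from endogenous RNA and so checks no label. Of 7 genes chosen to mark HEK293 cells, VIM, KRT8, KRT18 and the neurofilament gene NEFL had a mean of at least 1 FPKM, 4 in all, while PAX2 and LHX1 lay at 0.984 and 0.977 FPKM and NEFM at 0.238 FPKM. None of the 5 fibroblast, 5 leukocyte, 4 hepatocyte and 4 adipocyte markers reached that level; COL1A2, PTPRC, CD3E, APOB, SERPINA1 and LEP were listed at 0 in all 6 libraries. In a bulk sample, fewer cells of a type and less RNA per cell cannot be told apart.

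All 32 members had a mean of at least 1 FPKM over the 6 libraries and were among the 12833 genes tested in each of the 4 limma comparisons. The members with the highest mean levels were FASN, the fatty acid synthase, with 137 FPKM, SCD, which puts the first double bond into stearate, with 128 FPKM, and ACLY, which makes cytosolic acetyl-CoA from citrate, with 127 FPKM. These 3 genes lay at the 97.8 to 98.0 percentile of mean FPKM among the genes tested. In the mevalonate steps, mean FPKM ran from 3.71 for MVK, mevalonate kinase, to 35.9 for HMGCS1, the synthase that makes HMG-CoA. Between squalene and cholesterol it ran from 2.48 for CYP51A1, the lanosterol demethylase, to 41.1 for FDFT1, squalene synthase. CYP51A1 was the lowest of the members and lay at the 21.9 percentile.

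Of the 32 members, 7 lay above their own 6-library mean in Y483E library 1 and 8 in Y483F library 1, against 27 and 26 in Y483E libraries 4 and 5. The fatty acid precursor genes differed from this in part, with 4 of 5 above their mean in each library numbered 1 and 1 of 5 in Y483E library 4. In Y483E library 5 all 5 lay above their mean. The median of the 32 members' log2(FPKM + 1) values, each taken relative to that gene's mean over the 6 libraries, was -0.077 in Y483E library 1 and -0.089 in Y483F library 1. It was 0.068 and 0.097 in Y483E libraries 4 and 5, and -0.028 and -0.0030 in Y483F libraries 4 and 5. Over all genes tested the same median stayed between -0.017 and 0.0083. A library numbered 1 held the lowest value of 26 members (81.2%), against 30.5% of all genes tested. One of the 2 Y483E libraries numbered 4 and 5 held the highest value of 23 members (71.9%), against 32% of all genes tested, and neither held the lowest value of any member, against 30.2%.

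**Figure D1:**
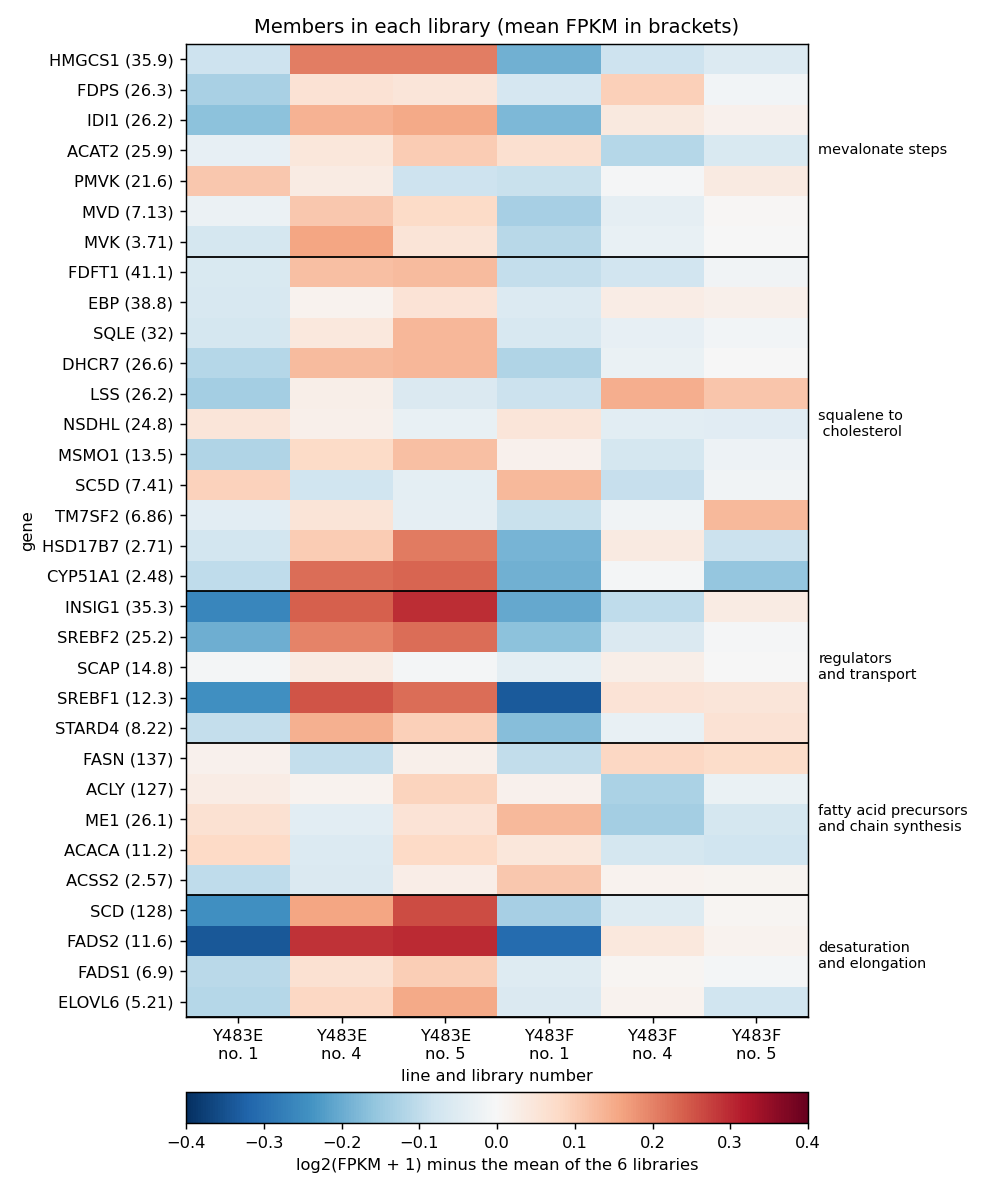
Heat map of the 32 members (rows, grouped by role, mean FPKM in brackets) in the 6 libraries (columns), with colour giving log2(FPKM + 1) minus the gene's mean over the 6 libraries. Most rows are blue in both libraries numbered 1 and red in Y483E libraries 4 and 5; the fatty acid precursor genes, SCAP, NSDHL, SC5D and PMVK are among those that are not.

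The first comparison set all 3 Y483E libraries against all 3 Y483F libraries, the comparison named in the study's design. None of the 32 members passed the threshold (limma, Benjamini-Hochberg adjusted p under 0.05), as none of the 12833 genes did (0%). At an unadjusted p under 0.05, limma counted 1 member, which was higher in Y483E as were 6.51% of genes tested, and edgeR counted 2 members, against 13.4% of its genes. With adjusted p-values edgeR called 0 members and 7 of 15992 genes (0.0438%), and DESeq2 called 0 members and 1.27% of the 11241 genes it gave an adjusted p. The Y483E mean was the higher in 26 members and the lower in 6, with a median log2 difference of 0.078 against 0.0070 over all genes tested, of which 52.8% were higher. In all 32 members the libraries of the 2 lines overlapped, as they did in 82.9% of genes tested.

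HMGCS1 had the smallest p of the members in that comparison. Its FPKM was 33.7, 41.3 and 41.3 in Y483E libraries 1, 4 and 5 and 31.2, 33.6 and 34.3 in Y483F libraries 1, 4 and 5. Within each line the library numbered 1 was the lowest, and Y483E library 1 lay between the Y483F libraries. The log2 difference was 0.22 ± 0.085 (SE; limma over all 6 libraries, adjusted p = 0.376), with an unadjusted limma p of 0.0368. HMGCS1 was the one member in the authors' deposited table of 1652 genes, all of them listed with an unadjusted p under 0.05, with a log2 fold change of 0.23, p = 0.00446 and adjusted p = 0.159. It passed the threshold with limma's weights per library, at 0.23 (adjusted p = 0.0374), a setting that called 2 of 32 members and 14.7% of all genes tested. It also passed with edgeR and the library number as a term, at 0.22 (adjusted p = 0.0414), a fit added after seeing the data that called 1 member and 1.02% of 16491 genes. With library weights CYP51A1 also passed, at 0.32 (adjusted p = 0.0387).

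The second comparison set Y483E libraries 4 and 5 against Y483F libraries 4 and 5. It shares these libraries with the first comparison and leaves out the libraries numbered 1. That choice was made with earlier results known, in which the libraries numbered 1 stood apart from the others. Of the 32 members, 4 were higher in Y483E past the threshold and 0 were lower (limma, adjusted p under 0.05), while 5.71% of the 12833 genes were called, 2.7% as higher and 3.01% as lower. The 4 members were HMGCS1, SREBF2, INSIG1 and FADS2, the last a desaturase of polyunsaturated fatty acids. The Y483E mean was the higher in 26 members, against 54.6% of genes tested, and the lower in 6, and the median log2 difference was 0.11, against 0.015 over all genes tested. Both Y483E libraries lay above both Y483F libraries in 23 members, or 71.9%, against 33.5% of genes tested, and below them in 2 members, or 6.25%, against 26.8%. The mitochondrial share of reads also differed between these libraries, with 2.15% and 1.23% in Y483E and 3.27% and 3.12% in Y483F, and its part in the result was not tested. The summed FPKM of the 7 HEK293 markers ran from 176 to 200 over the 3 Y483E libraries and from 168 to 173 over the 3 Y483F libraries, and its part was not tested either.

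With 2 libraries per line, the 4 calls moved with single libraries. Leaving 1 out keeps a single library in a line, so only the sizes of the differences are given here. The log2 differences themselves stayed between 0.26 and 0.29 for HMGCS1, 0.22 and 0.27 for SREBF2, 0.25 and 0.28 for FADS2 and 0.23 and 0.37 for INSIG1 when any 1 library was left out. On the recovered reads edgeR called 10 members higher and 1 lower, against 15% of 16308 genes called, 7.07% as higher and 7.98% as lower. DESeq2 called 9 members and 7.24% of 14282 genes.

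The third comparison set the 2 libraries numbered 1 against the 4 numbered 4 and 5, with the line as a term. No member passed the threshold in limma, nor did any other gene tested (0%), and the smallest limma adjusted p of the members, 0.0878, was that of SREBF1. At an unadjusted p under 0.05, 16 members were lower in the libraries numbered 1 and 2 were higher, against 7.64% and 11.1% of genes tested. The mean of the libraries numbered 1 was the lower in 24 of the 32 members, against 46.7% of genes tested, with a median log2 difference of -0.12 against 0.0094 over all genes tested. In 15 members, or 46.9%, both libraries numbered 1 lay below all 4 others, against 9.78% of genes tested, and in 3 members, or 9.38%, above them, against 15.9%. On the recovered reads edgeR called 6 members, all lower in the libraries numbered 1, against 1.4% of 16491 genes called and 0.91% called lower. These were SREBF1, FADS2, IDI1, INSIG1, SREBF2 and HMGCS1, and DESeq2 called the same number of members, 6, and 2.01% of 12453 genes.

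**Figure D2:**
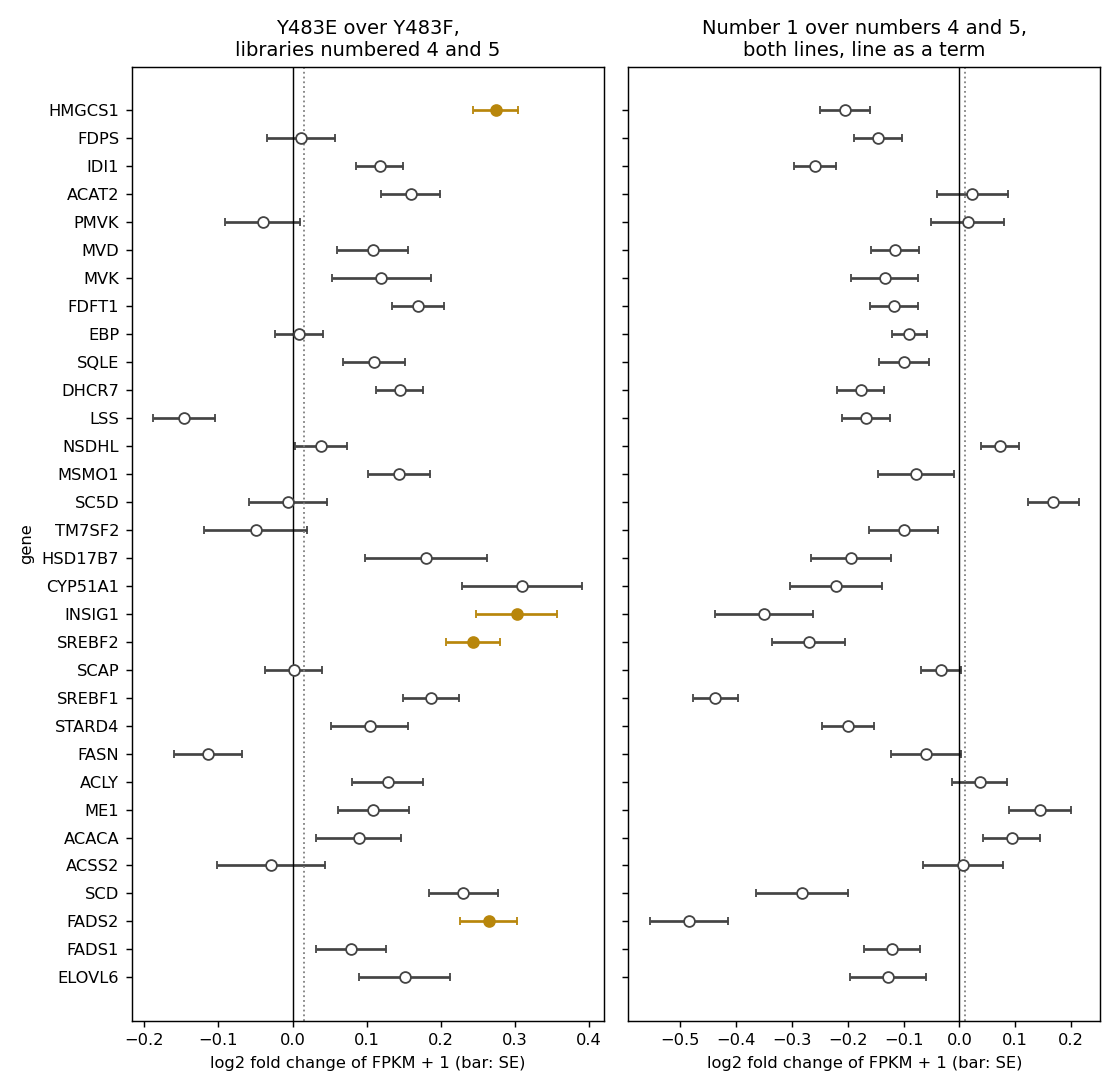
Log2 fold change of FPKM + 1 with its SE for each of the 32 members, on the left for Y483E over Y483F in libraries 4 and 5 and on the right for the libraries numbered 1 over those numbered 4 and 5. Filled points passed limma's adjusted threshold, the 4 members HMGCS1, INSIG1, SREBF2 and FADS2 on the left and none on the right; the dotted line is the median of all genes tested.

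Of the regulators, SREBF2 encodes the SREBP best known for driving cholesterol synthesis. Its FPKM was 21.8, 28.9 and 29.4 in Y483E libraries 1, 4 and 5 and 22.2, 24.0 and 25.0 in Y483F libraries 1, 4 and 5. Both libraries numbered 1 were the lowest, at almost the same level, and Y483E libraries 4 and 5 were above all others. The line difference in libraries 4 and 5 was 0.24 ± 0.037 on the log2 scale (SE, 2 libraries per line; limma, adjusted p = 0.0374), a level 19.1% higher. Over both lines, the libraries numbered 1 differed from the others by -0.27 ± 0.066 (limma, adjusted p = 0.142; edgeR, -0.29, adjusted p = 0.0364).

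SREBF1 encodes the SREBPs best known for fatty acid synthesis. Its FPKM was 10.1, 14.6 and 14.3 in Y483E libraries 1, 4 and 5 and 9.37, 12.6 and 12.6 in Y483F libraries 1, 4 and 5. The libraries numbered 1 were the lowest of each line and differed from the mean of the other 2 by -30.5% in Y483E and by -25.6% in Y483F. The difference between library numbers was -0.44 ± 0.041 on the log2 scale (limma, adjusted p = 0.0878; edgeR, -0.49, adjusted p = 0.000852). Between the lines in libraries 4 and 5 it was 0.19 ± 0.038 (limma, adjusted p = 0.0545; edgeR, 0.20, adjusted p = 0.00492).

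INSIG1, which retains SCAP in the endoplasmic reticulum, had 28.9, 41.4 and 43.0 FPKM in Y483E libraries 1, 4 and 5 and 30.1, 32.4 and 35.7 FPKM in Y483F libraries 1, 4 and 5. Again both libraries numbered 1 were the lowest and Y483E libraries 4 and 5 the highest. The line difference in libraries 4 and 5 was 0.30 ± 0.055 (limma, adjusted p = 0.0467), and the difference between library numbers was -0.35 ± 0.087 (limma, adjusted p = 0.146; edgeR, -0.37, adjusted p = 0.0364).

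SCAP, the escort itself, did not show this pattern. Its FPKM was 14.8, 15.2 and 14.8 in Y483E libraries 1, 4 and 5 and 14.4, 15.1 and 14.8 in Y483F libraries 1, 4 and 5, so the lines overlapped and all 6 libraries lay close together. Its line difference in libraries 4 and 5 was 0.0013 ± 0.039, a direction that turned to -0.016 with median-of-ratios scaling. STARD4, which carries cholesterol between membranes, ran from 7.17 to 9.15 FPKM, with both libraries numbered 1 below the other 4 (limma, -0.20 ± 0.047, adjusted p = 0.137).

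Of the 7 genes of the mevalonate steps, limma called 1 as higher in Y483E in libraries 4 and 5, against 2.7% of genes tested. In 6 of the 7 the Y483E mean in these libraries was the higher, against 54.6% of genes tested. HMGCS1 differed there by 0.27 ± 0.031 on the log2 scale (limma, adjusted p = 0.032), 21.5% above Y483F, and both Y483E values were 41.3 FPKM against 33.6 and 34.3. IDI1, which isomerises the activated isoprene unit, had 23.1, 28.8 and 29.1 FPKM in Y483E libraries 1, 4 and 5 and 22.9, 26.8 and 26.4 in Y483F libraries 1, 4 and 5. Its 2 libraries numbered 1 lay below the other 4 (limma, -0.26 ± 0.038, adjusted p = 0.119; edgeR, -0.28, adjusted p = 0.017).

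FDPS, which makes farnesyl diphosphate, had 23.9, 27.4 and 27.2 FPKM in Y483E libraries 1, 4 and 5 and 25.0, 28.1 and 26.0 FPKM in Y483F libraries 1, 4 and 5. It too was lowest in the libraries numbered 1 (limma, -0.15 ± 0.043, adjusted p = 0.178), but the lines overlapped in libraries 4 and 5. MVD and MVK, a decarboxylase and a kinase of mevalonate intermediates, had log2 line differences of 0.11 and 0.12 in libraries 4 and 5. ACAT2, the cytosolic thiolase that joins acetyl-CoA units, differed by 0.16 ± 0.040 there (limma, adjusted p = 0.0771; edgeR, 0.16, adjusted p = 0.0204), and in Y483F its library numbered 1 was the highest. PMVK, phosphomevalonate kinase, had a log2 line difference of -0.040 and ran from 20.2 to 23.3 FPKM with no order by line or number.

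Of the 11 genes between squalene and cholesterol, 0 passed limma's threshold in the line comparison of libraries 4 and 5, against 5.71% of genes tested. There 8 were higher and 3 lower in Y483E, and 54.6% of genes tested were higher. EdgeR called 3 higher and 1 lower, against 7.07% and 7.98% of its genes. FDFT1 had 39.3, 44.7 and 44.9 FPKM in Y483E libraries 1, 4 and 5 and 38.4, 38.9 and 40.6 FPKM in Y483F libraries 1, 4 and 5. Only Y483E libraries 4 and 5 stood above the rest, by 0.17 ± 0.035 over Y483F libraries 4 and 5 (limma, adjusted p = 0.0563; edgeR, 0.17, adjusted p = 0.00675). DHCR7, the last reductase before cholesterol in one branch, differed by 0.14 ± 0.032 (limma, adjusted p = 0.0627; edgeR, 0.15, adjusted p = 0.0246). CYP51A1 differed by 0.31 ± 0.081 (limma, adjusted p = 0.084; edgeR, 0.42, adjusted p = 0.0376), from 3.03 and 3.06 FPKM in Y483E against 2.43 and 2.10 FPKM in Y483F. It is a low gene, and the added pseudocount of 1 makes its limma difference smaller.

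EBP, a sterol isomerase, lay within a narrow range, with 37.0, 39.2 and 40.3 FPKM in Y483E libraries 1, 4 and 5 and 37.3, 39.6 and 39.4 FPKM in Y483F libraries 1, 4 and 5. Its lines overlapped, and its line difference in libraries 4 and 5 was 0.0083 ± 0.032, which became -0.0093 with median-of-ratios scaling. LSS, the cyclase that forms lanosterol, was the member lower in Y483E by edgeR, with -0.15 in libraries 4 and 5 (adjusted p = 0.0179; limma, -0.15 ± 0.042, adjusted p = 0.0981). Its FPKM was 26.6 and 25.1 in Y483E libraries 4 and 5 and 29.1 and 28.3 in Y483F libraries 4 and 5. LSS lies on chromosome 21, where the median log2 line difference in these libraries was -0.16 over 139 genes and 114 of them were lower in Y483E. ACSS2, which activates acetate and lies on chromosome 20, had a line difference of -0.029 in libraries 4 and 5, and the median of 349 genes there was -0.093. FASN on chromosome 17, PMVK on chromosome 1, and SC5D and TM7SF2 on chromosome 11 also had the lower mean in Y483E. The medians of these 3 chromosomes were -0.0012, 0.027 and 0.023. The part of the chromosome in any of these differences was not tested.

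MSMO1, SQLE and HSD17B7 had log2 line differences of 0.14, 0.11 and 0.18 in libraries 4 and 5. In each, both Y483E libraries lay above both Y483F libraries, an order seen in 33.5% of genes tested. NSDHL, SC5D and TM7SF2 had line differences of 0.038, -0.0062 and -0.049. NSDHL had the same order in libraries 4 and 5, and in SC5D and TM7SF2 the lines overlapped there. SC5D, which introduces a late double bond of the sterol ring, and NSDHL, a demethylating dehydrogenase, had both libraries numbered 1 above the other 4, the reverse of the direction of 24 members (limma, 0.17 ± 0.046 with adjusted p = 0.162 and 0.073 ± 0.034 with adjusted p = 0.313).

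**Figure D3:**
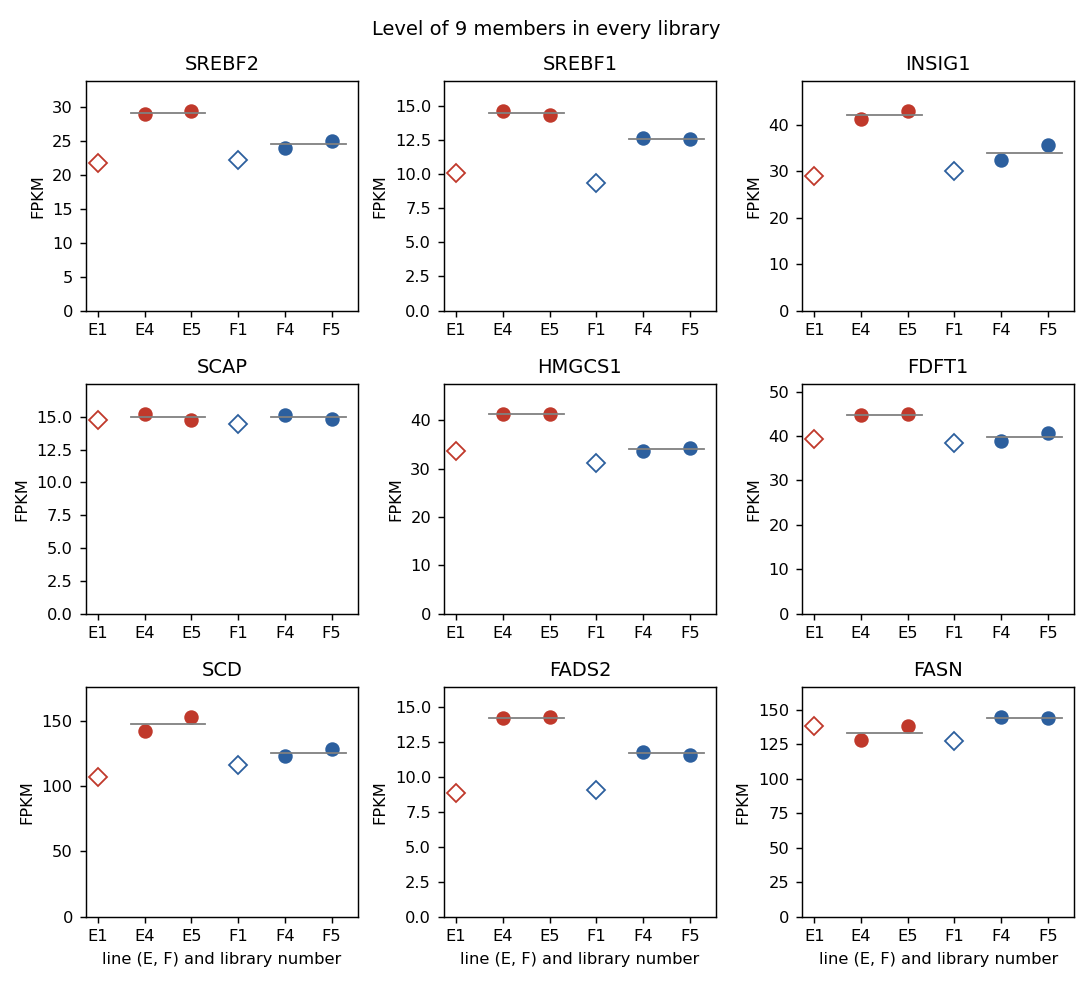
FPKM of 9 members in every library, with Y483E in red and Y483F in blue, library 1 as open diamonds, libraries 4 and 5 as filled circles, and grey lines at the mean of libraries 4 and 5 of each line. SREBF2, SREBF1, INSIG1, HMGCS1, SCD and FADS2 are lowest within each line in the open diamond and highest of all in the red circles; SCAP is level, and FASN is highest in the blue circles.

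The 4 genes of desaturation and elongation all had the higher mean in Y483E in libraries 4 and 5, against 54.6% of genes tested. In these libraries 1 of them, FADS2, passed limma's threshold as higher, against 2.7% of genes tested. There both Y483E libraries were above both Y483F libraries in all 4, against 33.5% of genes tested. Y483E library 1 was the lowest library in all 4, against 14.8% of genes tested, and Y483E library 5 the highest in all 4, against 19.8%. SCD had 107, 142 and 153 FPKM in Y483E libraries 1, 4 and 5 and 116, 123 and 128 FPKM in Y483F libraries 1, 4 and 5. Its log2 line difference in libraries 4 and 5 was 0.23 ± 0.047 (limma, adjusted p = 0.0538; edgeR, 0.23, adjusted p = 0.00274).

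FADS2 had 8.83, 14.2 and 14.3 FPKM in Y483E libraries 1, 4 and 5 and 9.03, 11.8 and 11.5 FPKM in Y483F libraries 1, 4 and 5. The libraries numbered 1 were below all 4 others and close to each other; they differed from the mean of the other 2 in their line by -37.9% in Y483E and by -22.6% in Y483F. The line difference in libraries 4 and 5 was 0.26 ± 0.038 (limma, adjusted p = 0.0367), and the difference between library numbers was -0.48 ± 0.070 (limma, adjusted p = 0.119; edgeR, -0.54, adjusted p = 0.00337). FADS1, the neighbouring desaturase, and ELOVL6, which lengthens palmitate, had line differences of 0.079 and 0.15 in libraries 4 and 5 and passed in neither tool.

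The 5 genes of fatty acid precursors and chain synthesis showed no such common order. In the comparison of library numbers 4 of the 5 had the higher mean in the libraries numbered 1, while 46.7% of all genes tested had the lower. The median log2 difference of the 5 was 0.036, against -0.12 over all 32 members. FASN had 138, 128 and 138 FPKM in Y483E libraries 1, 4 and 5 and 127, 144 and 144 FPKM in Y483F libraries 1, 4 and 5. In libraries 4 and 5 it was lower in both Y483E libraries, by a log2 difference of -0.11 ± 0.046 (limma, adjusted p = 0.182; DESeq2, -0.11, adjusted p = 0.034). ACLY had 129, 128 and 135 FPKM in Y483E libraries 1, 4 and 5 and 128, 116 and 124 FPKM in Y483F libraries 1, 4 and 5, a line difference in libraries 4 and 5 of 0.13 ± 0.048 (limma, adjusted p = 0.161; DESeq2, 0.13, adjusted p = 0.0379). ACACA, the carboxylase that makes malonyl-CoA, and ME1, an enzyme that supplies NADPH, had log2 line differences of 0.089 and 0.11 there. ME1 had both libraries numbered 1 above the other 4, with 27.3 and 28.7 FPKM against 23.7 to 27.1 FPKM.

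**Figure D4:**
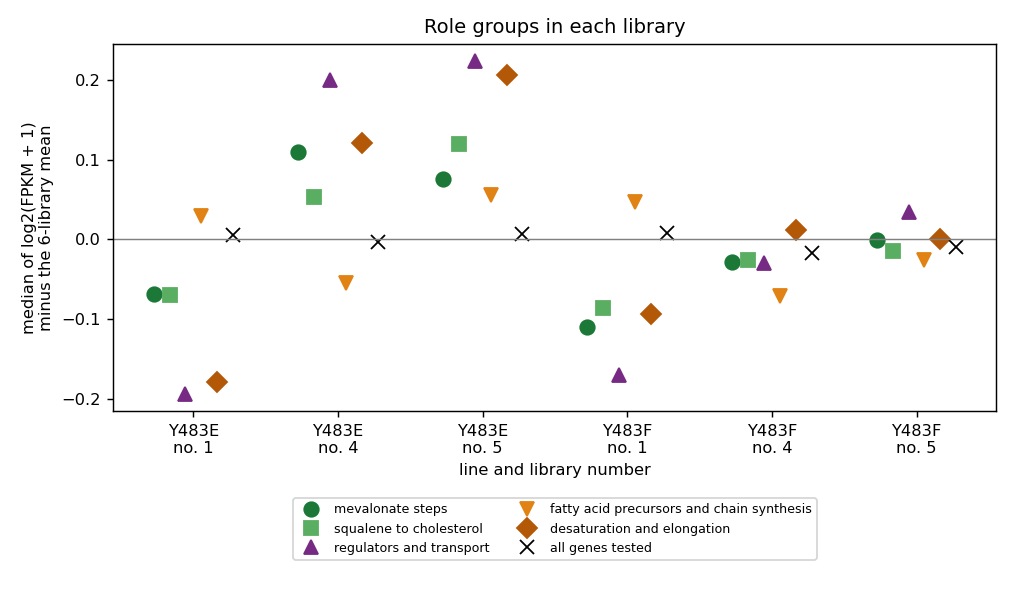
Median, over the genes of each role group, of log2(FPKM + 1) minus the gene's mean over the 6 libraries, by library, with all genes tested as crosses. The regulators run from -0.19 in Y483E library 1 to 0.22 in Y483E library 5, the desaturation and elongation genes from -0.18 to 0.21, and the fatty acid precursor genes stay between -0.071 and 0.055.

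In several members the Y483E excess of libraries 4 and 5 was not seen between the libraries numbered 1. Between the 2 libraries numbered 1, Y483E was higher in 17 members and lower in 15, with a median log2 difference of 0.0031. Of the 12833 genes tested, 6221 were higher and 6609 lower between these libraries, at a median of -0.0043. This is a comparison of single libraries with no test. SREBF2, INSIG1, SCD and FADS2 differed there by -0.029, -0.056, -0.11 and -0.030. The change of the line difference from library 1 to libraries 4 and 5 was tested as an interaction, with 2 residual degrees of freedom. Each line has 1 library numbered 1, so the spread in this test comes from libraries 4 and 5 alone and the lone library is assumed to vary like them. No member passed in limma, where 0.0623% of genes tested were called and 9 members had an unadjusted p under 0.05, 7 positive and 2 negative, against 7.9% and 7.99% of genes tested. On the recovered reads edgeR called 4 members, all with the larger Y483E excess in libraries 4 and 5, against 2.01% of genes called and 0.689% called in that direction. The log2 differences were 0.37 for INSIG1 (adjusted p = 0.0345), 0.35 for SCD (adjusted p = 0.0242), 0.32 for FADS2 (adjusted p = 0.0318) and 0.28 for SREBF2 (adjusted p = 0.0395), and DESeq2 called 1 member, SCD, and 1.6% of 7007 genes. HMGCS1 did not pass, with 0.17 ± 0.054 (limma, adjusted p = 0.275) and a Y483E excess of 0.11 in library 1.

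Genes around these pathways were followed through 3 wider lists. In the isoprenoid branch, which makes longer isoprenoid chains and attaches them to proteins, 9 of 9 genes were tested and 0 were called in any limma comparison; in libraries 4 and 5, 5 were higher in Y483E and 4 lower, with a median log2 difference of 0.011. Over all genes tested in these libraries 54.6% had the higher mean in Y483E, limma called 5.71% (2.7% higher) and edgeR called 7.07% higher. Of sterol sensing, transport and esterification genes, 19 of 20 were tested and 0 were called by limma; in libraries 4 and 5, 15 had the higher mean in Y483E and 4 the lower, at a median of 0.090, and edgeR called 5 higher. Of fatty acid elongation, activation and supply genes, 25 of 26 were tested and 1 was called by limma; 20 had the higher mean in Y483E and 5 the lower, at a median of 0.076, and edgeR called 3 higher. The gene called was ELOVL5, an elongase of polyunsaturated fatty acids, with 41.0, 48.0 and 47.2 FPKM in Y483E libraries 1, 4 and 5 and 40.4, 41.9 and 39.1 FPKM in Y483F libraries 1, 4 and 5. Its log2 line difference in libraries 4 and 5 was 0.23 ± 0.043 (limma, adjusted p = 0.0494). By library number the 3 lists had medians of 0.044, 0.027 and 0.015 with the libraries numbered 1 over the others, against -0.12 for the 32 members; limma called 0 of their genes there, and edgeR called 1 lower in each of the last 2 lists.

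Strandedness limits some of these values, since the protocol names directional as well as non-directional second-strand synthesis. In GENCODE 29, exons of 14 members overlapped exons of a gene on the opposite strand, and for 8 of them that gene reached 1 FPKM in a library. FADS1 and FADS2 share 490 exonic bases, SREBF1 shares 556 with RAI1, SREBF2 shares 280 with SREBF2-AS1, and ACAT2 shares 397 with TCP1, which reached 130 FPKM; reads from such partners could not be separated. The coordinates in the deposited table equal those of GENCODE 29 on GRCh38 for all 32 members. HMGCS1 (ENSG00000112972) lies at chr5:43289395-43313512 on the minus strand, SREBF2 (ENSG00000198911) at chr22:41833079-41907308 and INSIG1 (ENSG00000186480) at chr7:155297776-155310235, both on the plus strand, and FADS2 (ENSG00000134824) at chr11:61792980-61867354 on the plus strand. SREBF1 (ENSG00000072310) lies at chr17:17810399-17837002 on the minus strand and SCD (ENSG00000099194) at chr10:100347124-100364834 on the plus strand.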

How the data were processed

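RNA from 6 HEK293 libraries, 3 per line, was selected with poly-T beads, per the labels' protocols. The submitters' processing notes list featureCounts 1.5.0-p3, HISAT2 2.0.5 and StringTie 1.3.3b, besides DESeq and DESeq2, without their roles; no source used here names the genome build. The authors deposited FPKM values of 58735 genes with gene lengths. A second table of theirs gives, for 1652 genes, the authors' raw read counts, a signal that is the authors' counts divided by a size factor per library, and the authors' log2 fold changes and p-values. FPKM multiplied by length and by a library total, worked out from the listed counts, gave whole reads within 0.01 for 100% of values, equal to the listed counts for all 1652 genes.

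The main test was limma 3.58.1 (trend) on log2(FPKM + 1), for the 12833 genes whose mean reached 1 FPKM, two-sided, with Benjamini-Hochberg adjustment over all genes and a threshold of 0.05, in R 4.3.3. The pseudocount makes the fold changes of low genes smaller. Recovered reads were tested with edgeR 4.0.16 (quasi-likelihood, TMM) and DESeq2 1.42.0. Fits were checked on simulated counts. Read totals of 17204498 to 23284592 per library limit the precision of low genes, and the count tests cover counting error and the spread between libraries.

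Values in every library are given for members past the threshold in a limma comparison, members with an unadjusted p under 0.05 in the comparison of all libraries, the 2 members of highest mean FPKM in each role group, the member in the authors' deposited table and the regulators, and for IDI1, added after its values were seen because edgeR called it; other members were described by range and difference. The members, lists and comparisons were chosen with earlier results of these data known. Some enzymes of the pathway are not reported here. Same-numbered libraries of the 2 lines had correlations of their deviations from the line means of 0.0562, 0.139 and -0.0949, so the numbers were not taken to pair them.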

Additional observations from a re-analysis of the deposited data

Results flagged for a closer look

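In 4 members edgeR called a different line difference in libraries 4 and 5 from that in library 1, by its interaction of line and library number on the recovered reads with Benjamini-Hochberg adjustment. The Y483E excess was larger in libraries 4 and 5 than in library 1 by a log2 difference of 0.37 for INSIG1, 0.35 for SCD, 0.32 for FADS2 and 0.28 for SREBF2. In each of these genes Y483E library 1 was below Y483F library 1, and both Y483E libraries numbered 4 and 5 were above both Y483F libraries. Limma gave the same direction, with log2 differences of 0.36, 0.34, 0.29 and 0.27 and adjusted p-values of 0.241, 0.228, 0.228 and 0.228, so none passed there. DESeq2 called 1 of the 4, SCD. Each line has 1 library numbered 1, so the difference rests on those 2 libraries, and the spread in the test comes from libraries 4 and 5 alone.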

How the results depend on the processing

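Depth, the 2 or 3 libraries per line and the choice of tool limit these results, and the cause of each change given here was not tested. Of 744 values of named members under an alternative, 638 kept direction and call, 61 newly passed the threshold, 18 no longer passed and 27 turned direction. In the comparison of all libraries the genes called were 0 in limma, 7 with edgeR, 14 with edgeR without TMM, 671 with edgeR without a filter, 143 with DESeq2, 169 with edgeR and the library number as a term (chosen after seeing the data) and 1888 with library weights. Members called were 0 in limma, 3 with edgeR without a filter, 1 with edgeR and the library number, and 2 with library weights. With the replicate block, limma called 0 genes and 0 members.

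In libraries 4 and 5 the genes called were 733 in limma, 0 with no filter, 1233 with a filter of 5 FPKM, 2454, 2413 and 2959 with edgeR as run, without TMM and without a filter, 1034 with DESeq2, and 4 to 848 with 1 library left out. Members called were 4, then 0, 9, 11, 11, 14 and 9 under the same settings and 0 to 3 with 1 library left out. The share of all genes called there was 5.71% in limma, 15% with edgeR as run and 7.24% with DESeq2. The number of genes tested differs between settings, so the counts in this section are not shares. The members' median of 0.11 became 0.14 with edgeR without a filter and lay between 0.097 and 0.15 with 1 library left out. Leaving out Y483E library 4 gave 0.15. Where a line keeps 1 library, that library is assumed to vary like the others.

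By library number, 0 genes were called in limma, 14 with a filter of 5 FPKM, 231, 228 and 937 with edgeR as run, without TMM and without a filter, 250 with DESeq2, and 0 to 22 with 1 library left out (22 without Y483F library 1, 5 without Y483E library 1, 1 without Y483E library 4). Members called were 0, then 1, 6, 6, 10 and 6, and 0 to 1 with 1 library left out (1 without Y483F library 1). The share of all genes called by library number was 0% in limma, 1.4% with edgeR as run and 2.01% with DESeq2. The members' median of -0.12 became -0.15 with each edgeR fit and ran from -0.18 without Y483F library 1 to -0.11 (without Y483E library 1). For the interaction, 8 genes were called in limma, 242 with no filter, 32 with a filter of 5 FPKM, 347, 355 and 688 with the edgeR fits, 112 with DESeq2, and 5 to 169 with 1 library left out (169 and 31 without Y483E library 4 or 5, 5 without Y483F library 4). Members called were 0 in limma, 4, 4 and 5 with the edgeR fits and 1 with DESeq2. The share of all genes called for the interaction was 0.0623% in limma, 2.01% with edgeR as run and 1.6% with DESeq2. The members' median of 0.11 was 0.090 with median-of-ratios scaling and ran from 0.10 to 0.13 with 1 library left out.

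All turned directions were of small differences in ACLY, EBP, FASN, FDPS and SCAP. Between the lines over all libraries, EBP (0.0017) turned to -0.0085 with median-of-ratios scaling, -0.0058 with edgeR, -0.0010 without TMM, -0.0056 with edgeR and the library number, -0.00060 with library weights and to between -0.025 and 0.035 with 1 library left out. FDPS (-0.013) turned to 0.026 with library weights and ranged from -0.049 to 0.048 with 1 library left out; FASN ranged from -0.096 to 0.00036 and SCAP from -0.0047 to 0.025. In libraries 4 and 5, median-of-ratios scaling gave -0.0093 for EBP, -0.0060 for FDPS and -0.016 for SCAP, and SCAP gave -0.0014 with edgeR and -0.0037 without TMM. With 1 library left out there, EBP ranged from -0.012 to 0.029, FDPS from -0.041 to 0.064 and SCAP from -0.019 to 0.022. By library number, ACLY ranged from -0.022 to 0.095 and FASN from -0.18 to 0.055, both turning without Y483F library 1. The EBP interaction of 0.020 gave -0.0010 with median-of-ratios scaling and ranged from -0.00073 (without Y483E library 5) to 0.040 with 1 library left out.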
